A study of Mus musculus with 15 samples.

Results

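The comparison set cardiomyocytes taken 26 days after proton irradiation against cardiomyocytes taken 3 days after it, and asked how the message levels of irradiated heart muscle cells differed between an early and a late time. The members were the 2 arrays of day 26 and the 3 arrays of day 3, 5 of the 15 arrays of the series. All came from adult male C57Bl/6NT mice of 8 to 9 months whose whole body had received 90 cGy of 1 GeV protons. Cells were released from the left ventricle by collagenase and selected by their tolerance of stepwise calcium, and by the labels the suspension may still have held a few endothelial or inflammatory cells. The days are those of the sample titles (1, 3, 5, 12 and 26), while the design text of the series gives other days for the later times (7, 14 and 28). Sham arrays (2 of day 1 and 1 of day 3) did not enter the test and are quoted only as levels. No sham array of day 26 was analysed here, so time after protons cannot be told apart from other differences between the collection days. The labels do not say that the arrays of a day came from separate mice, so a p-value here speaks of the variation among the arrays, which may be technical.

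Heart muscle cells renew little and keep a large, always active machinery of contraction, so they depend on chaperones that refold or remove damaged protein. Chaperones of the endoplasmic reticulum (ER) are induced by the unfolded protein response, through the factors ATF6, XBP1 and ATF4, and chaperones of the cytosol by the heat shock factor HSF1. The same cells burn fat and sugar in dense mitochondria under the control of coactivators such as PGC-1alpha, and store glycogen as a reserve.

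The arrays were of like brightness: over all probe sets their medians were 4.90 to 5.16 on the log2 scale. Myh6, the main myosin heavy chain of the adult mouse heart, lay between 11.83 and 11.99 on the 5 arrays, with a log2 difference of -0.07 ± 0.06 (SE). Within day 3, replicate 3 had more signal than its 2 partners in markers of other cells. Its mean over 25 macrophage markers, as log2 deviation from each gene's mean over all arrays, was 0.51 against -0.94 and -0.74. The corresponding values were 0.36 against -0.39 and -0.66 for 23 endothelial markers and 0.48 against -0.52 and -0.67 for 16 fibroblast markers. Several results are therefore also given without that array, and with the mean of those 3 marker lists as a covariate.

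Of 12102 genes tested, 1 passed a Benjamini-Hochberg adjusted p of 0.05 in limma, a share of 0.00826%, and it was lower at day 26; 0 were higher. At an unadjusted p under 0.05, 923 genes were higher (7.63%) and 890 lower (7.35%). The 2 day 26 arrays lay wholly above the 3 day 3 arrays for 1811 genes (15.0%) and wholly below for 1918 (15.8%). The median log2 difference over all genes was 0.04, and 71 genes were more than 1 unit higher against 10 more than 1 unit lower. The number of calls depended on single arrays: it was 0 without day 3 replicate 1, day 3 replicate 2 or either day 26 array, and 10 without day 3 replicate 3 (7 higher, 0.0578%, and 3 lower, 0.0248%). With the marker covariate it was 1149, of which 559 were higher (4.62%) and 590 lower (4.88%). Genes below are thus described by their values, and apart from Ctnnal1 none passed over all genes with the 11 proton samples.

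Ctnnal1, which encodes alpha-catulin, a protein related to alpha-catenin, fell between the days. RefSeq places the gene at 56810935 to 56865375 of chromosome 4 in GRCm38.p6. Its log2 signal was 8.39, 8.49 and 8.61 on the day 3 arrays and 7.39 and 7.38 on the day 26 arrays. The groups did not overlap, and the 2 late arrays were nearly equal. The difference was -1.11 ± 0.11 (SE), or 2.16-fold lower (limma adjusted p = 0.0171). The mean was 7.73 ± 0.28 (SD, n = 3) in sham, 8.02 at day 1, 7.62 at day 5 and 7.67 at day 12, so day 3 was the highest of the 5 proton days and day 26 the lowest. The difference stayed between -1.21 and -1.06 in the 19 alternative fits. It passed in 10 of them, with adjusted p from 0.00355 to 0.434, and did not pass without day 3 replicate 1 (0.0646) or 2 (0.110) or without day 26 replicate 1 (0.434) or 2 (0.150).

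The genes next in rank were chosen among those with separate arrays on both days, and their adjusted p was above 0.05. Of all genes, 15.0% were separate with day 26 higher and 15.8% with day 26 lower. Zfp36l1, an RNA-binding protein that promotes decay of messages with AU-rich ends, was at 7.67, 7.64 and 7.84 at day 3 and at 8.83 and 8.54 at day 26 (log2 difference 0.97 ± 0.12, limma adjusted p = 0.0517). Both late arrays also lay above the sham mean of 7.86, although sham itself varied (SD 0.46). Aplnr, the receptor of the peptide apelin, was at 5.08, 5.18 and 5.35 against 6.60 and 6.39 (1.29 ± 0.16, adjusted p = 0.0557). In this gene day 3 was below the sham mean of 6.16 and day 26 near it. Hsd17b7, an enzyme of cholesterol and steroid synthesis, was at 7.67, 7.60 and 7.71 against 6.85 and 6.98 (-0.74 ± 0.10, adjusted p = 0.0581), and here sham, at 7.68, was level with day 3. Cdc42ep2, an effector of the small GTPase Cdc42, had a difference of 0.87 ± 0.12 (adjusted p = 0.0581). Nfix, a transcription factor of the nuclear factor I family, had 0.52 ± 0.08, and Lims2, an adaptor of integrin adhesions, had 1.01 ± 0.18. The phosphatase gene Dusp18 had -0.87 ± 0.13 and the ubiquitin ligase gene Trim7 had -0.86 ± 0.14. The plot of 9 genes by day gives every array of the series.

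**Figure D1:**
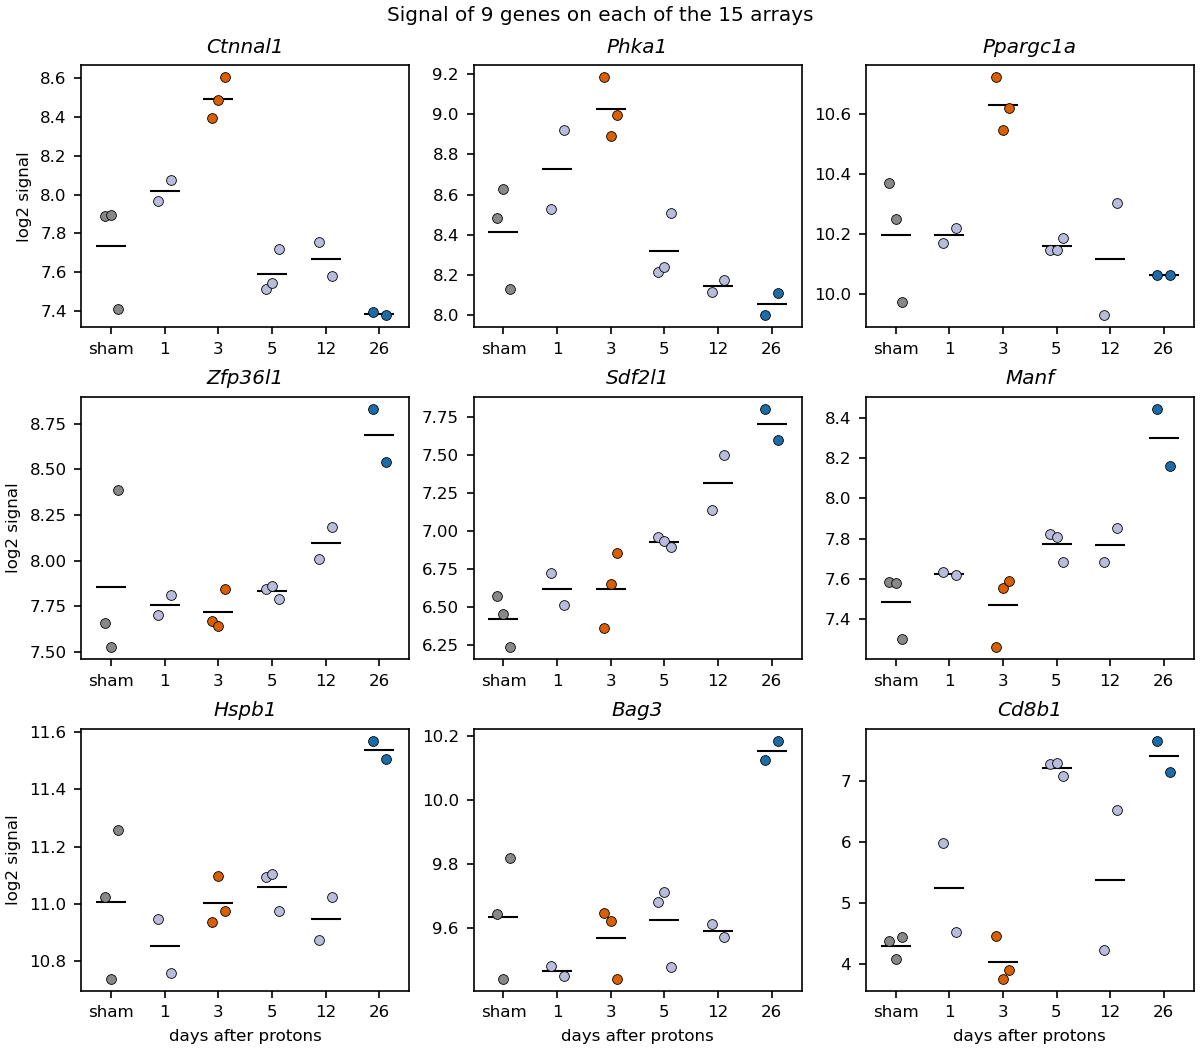
Log2 signal (y axis) of 9 genes on each of the 15 arrays, by day after protons or sham (x axis). Points are arrays, orange for day 3 and blue for day 26, and lines are the means of the arrays drawn. Ctnnal1, Phka1 and Ppargc1a are highest at day 3, where Ctnnal1 lies between 8.39 and 8.61, while Hspb1 and Bag3 stand apart from every other day at day 26, where Hspb1 lies at 11.57 and 11.51.

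Chaperones and folding enzymes of the ER had higher values at day 26. Of 30 measured genes of the unfolded protein response, 26 lay above 0 (56.1% of all genes did), and the median log2 difference was 0.26, against 0.04 over all genes. Of the 30, 13 were higher at an unadjusted p under 0.05 (background 7.63%) while 0 were lower. None passed over all genes. Sdf2l1, a cofactor of the ER chaperone BiP, was at 6.36, 6.65 and 6.85 at day 3 and at 7.80 and 7.60 at day 26 (1.08 ± 0.17, limma adjusted p = 0.0747). Its means formed a row over time, from 6.62 at days 1 and 3 over 6.92 at day 5 and 7.32 at day 12 to the late value, with sham at 6.42. Manf, a secreted factor that protects cells under ER stress, was at 7.26, 7.55 and 7.59 against 8.44 and 8.16 (0.83 ± 0.13, adjusted p = 0.075). Both genes were named among those without overlap of the groups. Their sham means of 6.42 and 7.49 fell inside the range of the day 3 arrays.

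The promoters of these genes are shown because they share a known control sequence. The ER stress element, bound by ATF6 and XBP1, was searched as CCAAT, 9 bases of any kind and then CCACG, on both strands in windows of 300 bases, from 250 before to 50 after each start (RefSeq, GRCm38.p6). It occurred in 39 of all 32851 promoters (0.119%) and in those of 9 of 26 measured response genes with a window (34.6%): Calr, Canx, Creld2, Derl3, Dnajc3, Hsp90b1, Hspa5, Pdia6 and Syvn1. The list consists of known targets, so this share describes how the list was composed. The 3 sequences below are read 5′ to 3′ along the gene, with the element in capitals; in Creld2 it lies on the opposite strand. They come from chr2:34771840-34772139 (plus strand) for Hspa5, chr19:6046326-6046625 (plus strand) for Syvn1 and chr15:88819396-88819695 (plus strand) for Creld2.
Hspa5: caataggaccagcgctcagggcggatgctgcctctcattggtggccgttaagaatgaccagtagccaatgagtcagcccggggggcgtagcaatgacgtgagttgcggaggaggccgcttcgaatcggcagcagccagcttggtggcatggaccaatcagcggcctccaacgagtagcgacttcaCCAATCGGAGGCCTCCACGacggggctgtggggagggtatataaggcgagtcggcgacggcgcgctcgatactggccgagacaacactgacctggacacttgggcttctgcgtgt
Syvn1: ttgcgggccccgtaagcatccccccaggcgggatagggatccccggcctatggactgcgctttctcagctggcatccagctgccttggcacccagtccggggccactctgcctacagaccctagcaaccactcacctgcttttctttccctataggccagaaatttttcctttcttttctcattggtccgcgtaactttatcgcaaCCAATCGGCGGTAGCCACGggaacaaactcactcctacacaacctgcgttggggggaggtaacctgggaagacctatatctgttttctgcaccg
Creld2: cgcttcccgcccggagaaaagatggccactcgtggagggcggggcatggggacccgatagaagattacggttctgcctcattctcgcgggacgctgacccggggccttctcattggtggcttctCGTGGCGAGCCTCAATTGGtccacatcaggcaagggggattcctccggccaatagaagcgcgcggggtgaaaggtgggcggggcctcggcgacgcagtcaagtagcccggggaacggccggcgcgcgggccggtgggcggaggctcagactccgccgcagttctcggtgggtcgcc

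The 9 genes with the element had log2 differences from 0.13 to 0.75 with a median of 0.36, all 9 above 0, and 5 had an unadjusted p under 0.05. The 17 genes without it in this window had a median of 0.18, with 14 above 0 and 6 at an unadjusted p under 0.05. Sdf2l1 and Manf were outside the first group, so the largest values were not those of the genes with this exact motif; a match or its absence is a description of these letters only. Hspa5, which encodes BiP itself, was at 10.38, 10.41 and 10.52 against 10.83 and 10.69 (0.32 ± 0.09, adjusted p = 0.172). Its sham mean was 10.16, below every day 3 array, and day 26 was higher again. Hsp90b1, the ER member of the HSP90 family, was at 9.62, 9.63 and 9.83 on day 3 and had a mean of 9.96 ± 0.06 (SD, n = 2) on day 26, with no overlap (0.27 ± 0.11) and sham at 9.30. Calr, the calcium-binding lectin chaperone calreticulin, had 0.36 ± 0.12.

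The following members were chosen after their values were seen. Syvn1, the ubiquitin ligase of ER-associated degradation, was at 7.21, 7.19 and 7.28 against 7.75 and 7.74 (0.52 ± 0.09), with closely matched arrays on both days. Hyou1, a large ER chaperone, had 0.65 ± 0.17, Creld2 had 0.75 ± 0.21 and the disulfide isomerase Pdia4 had 0.88 ± 0.25. Xbp1, the transcription factor of the response, was at 8.63, 8.74 and 8.86 against 9.10 and 9.09 (0.35 ± 0.09). Members near or below 0 included the transcription factor gene Atf4 (-0.06 ± 0.14), Ddit3, the pro-apoptotic factor CHOP (-0.11 ± 0.31), and Chac1 (-0.02 ± 0.22). Asns, asparagine synthetase, had 0.26 ± 0.19, at the list median but within its spread. Herpud1, of the degradation complex, was at 10.23, 10.43 and 10.47 on day 3 and 10.33 and 10.43 on day 26, with sham at 9.80, so that here both days stood above sham and did not differ beyond the spread.

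The mean of the ER list per array was -0.12, -0.08 and 0.10 at day 3 and 0.37 and 0.21 at day 26, with -0.31 to -0.16 in sham. Day 3 replicate 3, rich in markers of other cells, was the highest of its day. Macrophage and fibroblast markers had the same array on top within day 3. With the marker covariate the list median was 0.16, with 5 members passing higher and 0 lower (background 4.62% and 4.88%). Without day 3 replicate 3 the median was 0.36. The count of 13 members at an unadjusted p under 0.05 was 6 without day 26 replicate 1 (background 3.45%), 9 without day 3 replicate 2 (background 5.81%) and 16 without day 3 replicate 3 (background 10.4%). What part cells other than cardiomyocytes had in these values was not tested beyond the covariate. In such bulk RNA a change in the number of cells of a type and a change in RNA per cell cannot be told apart.

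**Figure D2:**
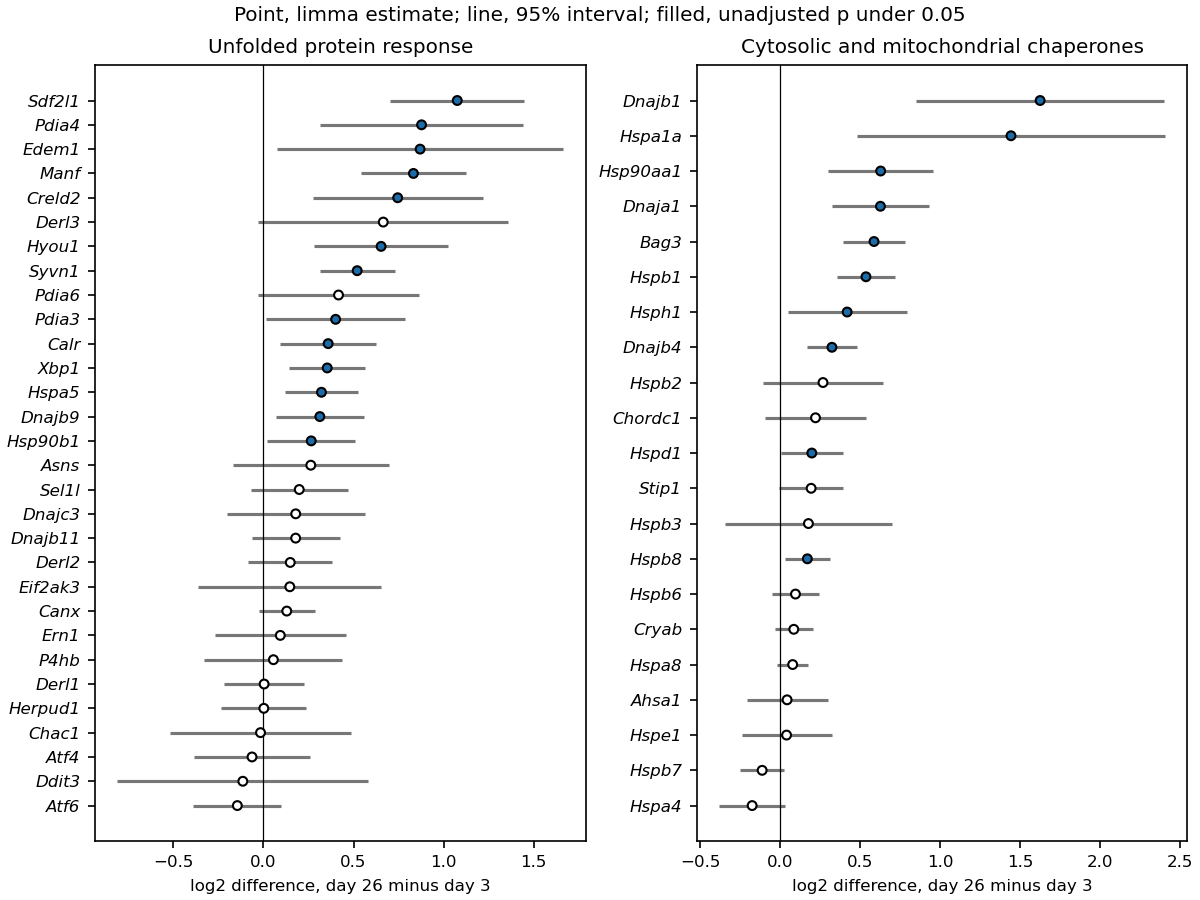
Log2 difference of day 26 minus day 3 (x axis) for each measured gene of the unfolded protein response (left, 30 genes) and of the cytosolic and mitochondrial chaperones (right, 21 genes). Points are limma estimates, lines 95% intervals, and filled points have an unadjusted p under 0.05. Filled points lie only to the right of 0 in both panels, from 0.27 for Hsp90b1 to 1.08 for Sdf2l1 on the left and up to 1.62 for Dnajb1 on the right.

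Chaperones of the cytosol and mitochondria had higher values at day 26 as well. Of 21 measured members 19 lay above 0 (56.1% of all genes did), with a median of 0.20. At an unadjusted p under 0.05, 10 were higher (background 7.63%) and 0 lower. None passed over all genes. Hspb1, the small heat shock protein HSP27, was at 10.94, 11.10 and 10.97 at day 3 and at 11.57 and 11.51 at day 26 (0.53 ± 0.08, limma adjusted p = 0.0684), and its second probe set had 0.55. Bag3, the cochaperone that sends damaged filament proteins of the Z-disc to autophagy, was at 9.65, 9.62 and 9.44 against 10.12 and 10.18 (0.58 ± 0.09, adjusted p = 0.0684). For both genes the means of sham (11.01 and 9.63) and of days 1, 5 and 12 (10.85 to 11.04 and 9.46 to 9.59) were near day 3, so day 26 alone stood out. Chosen after the values were seen, Dnajb1, an HSP40 cofactor of HSP70, was at 8.30, 7.99 and 7.99 against 9.84 and 9.59 (1.62 ± 0.34). Hspa1a, inducible HSP70, was at 9.79, 9.50 and 9.79 against 11.12 and 11.15 (1.44 ± 0.43); its near-identical copy Hspa1b may share the probes. Hsp90aa1, the inducible cytosolic HSP90, had 0.63 ± 0.15 and Dnaja1 had 0.62 ± 0.13. Constitutive chaperones had values near 0: Hspa8 had 0.08 ± 0.04, Cryab, alpha-B crystallin, 0.08 ± 0.05, Hspb6 0.09 ± 0.07 and Hspb7 -0.11 ± 0.06.

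Per array the cytosolic chaperone mean was -0.03, 0.02 and -0.11 at day 3 and 0.31 and 0.32 at day 26. Sham ranged from -0.28 to 0.21, a wider spread than within either proton day. In contrast to the ER list, day 3 replicate 3 was the lowest of its day. With the marker covariate 11 members passed higher and 1 lower (background 4.62% and 4.88%), and the median was 0.29. It was 0.09 with the arrays set to equal medians. Leaving out any 1 array of the 5 gave list medians from 0.13 to 0.27. Heat shock elements, searched as GAA, TTC and GAA or as TTC, GAA and TTC, each 2 bases apart, were found in 198 promoters (0.603%) and in 4 of 17 list members with a window: Chordc1 (0.22), Hspd1 (0.20), Hspe1 (0.04) and Hsph1 (0.42). These were not the members with the largest differences.

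Small nucleolar and Cajal body RNAs, which guide chemical modification of ribosomal and spliceosomal RNA, had the most even shift of the RNA classes examined. Of 54 such genes on the array, 40 were bright enough to be tested, 36 of them lay above 0, the median was 0.42, and 25 were higher at an unadjusted p under 0.05 (62.5%, background 7.63%) with 0 lower. None passed over all genes. Snora7a was at 10.17, 9.93 and 9.84 at day 3 and at 10.37 and 10.57 at day 26 (0.49 ± 0.10, limma adjusted p = 0.104). Scarna13 was at 8.40, 8.24 and 8.34 against 8.79 and 9.09 (0.61 ± 0.13, adjusted p = 0.118). Its path was not a steady one: the mean was 7.80 in sham, 8.86 at day 1, 9.64 at day 5 and 9.13 at day 12, so day 3 was the lowest of the 5 proton days. The spliceosomal RNA Rnu12 (U12) was at 6.28, 6.12 and 6.68 against 6.27 and 6.26 (-0.10 ± 0.18), with 7.64 at day 1 and 7.71 at day 5; days 3 and 26 both matched sham, at 6.29. Others chosen after the values were seen include Snord118, the U8 RNA needed for ribosomal RNA processing, at 4.69, 4.76 and 4.42 against 5.28 and 5.72 (0.88 ± 0.21), Snord87 at 6.17, 6.20 and 6.22 against 6.86 and 6.87, and Scarna17 at 0.67 ± 0.17. The day 3 values of Snord118 lay below the brightness filter of 5.00, so it passed that filter through other arrays. Since a gene dark at day 3 could pass in this way, the 40 do not stand for all 54. The 4 members below 0 were Snora31, Snord95, Snora75 and Snora3, none lower than -0.17.

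The list mean per array was -0.05, -0.25 and -0.42 at day 3 and 0.08 and 0.29 at day 26, with -0.54 to -0.21 in sham. Array medians ran in the same order within day 3 (5.16, 4.98 and 4.90) and were 5.10 and 5.13 at day 26. With the arrays set to equal medians, which moved the median of all genes from 0.04 to -0.06, the list median was 0.32. It was 0.58 with the marker covariate, with 24 members passing higher and 0 lower (background 4.62% and 4.88%). The count of 25 was 17 without day 3 replicate 3 (background 10.4%), and the list median was 0.34 without day 26 replicate 2. Olfactory and vomeronasal receptor genes, not known for heart muscle, were also mostly above 0, 30 of the 40 tested of 1194, with a median of 0.21, and 4 were higher at an unadjusted p under 0.05 (16 without day 3 replicate 1, background 11.9%). Their median was 0.45 without that array and 0.08 without day 3 replicate 3. The part of array brightness in these 2 lists was not tested further. The messages of cytosolic ribosomal proteins gave a median of -0.01 over 55 genes. At an unadjusted p under 0.05, 0 were higher and 1 lower (background 7.63% and 7.35%).

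**Figure D3:**
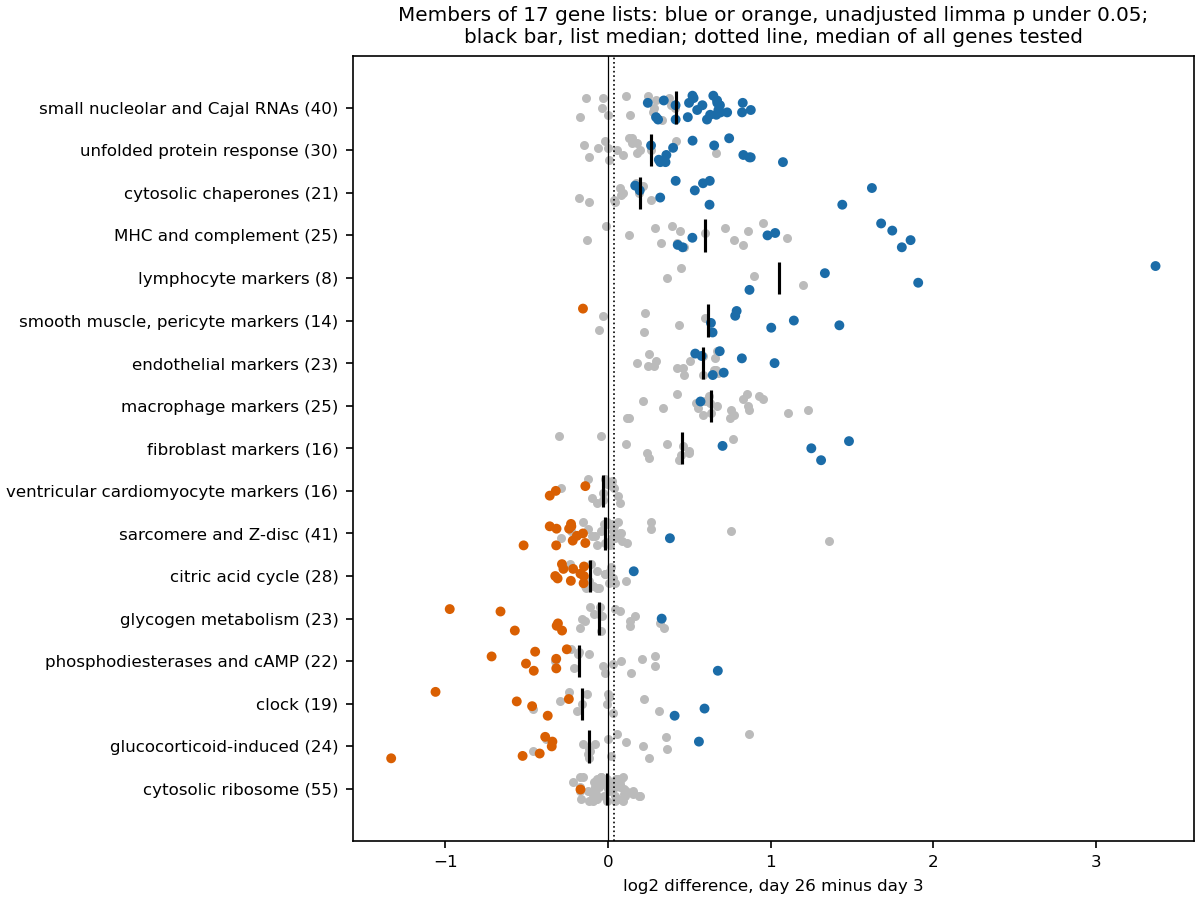
Log2 difference of day 26 minus day 3 (x axis) for the members of 17 gene lists (rows, number of genes tested in parentheses). Each point is a gene, blue or orange where its unadjusted limma p was under 0.05, the bars are list medians and the dotted line is the median of all genes, 0.04. Small nucleolar and Cajal RNAs have their median at 0.42 with 25 blue points, citric acid cycle genes theirs at -0.11, and cytosolic ribosomal genes theirs at -0.01.

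MicroRNA genes were measured through probe sets that may read the precursor or its host transcript, and 69 of 300 passed the brightness filter. Their median was 0.25, with 8 higher and 6 lower at an unadjusted p under 0.05 (background 7.63% and 7.35%), and the median was 0.09 without day 3 replicate 3. The 8 became 35 without day 3 replicate 1 (background 11.9%), 1 without day 26 replicate 2 (background 4.93%) and 2 to 4 without another array of the 5. The genes with the smallest p were both lower at day 26. Mir505 was at 6.22, 6.17 and 6.46 against 5.70 and 5.64 (-0.61 ± 0.12, limma adjusted p = 0.104), with sham at 5.50, so day 3 stood above both. Mir99a was at 5.62, 5.36 and 5.68 against 4.47 and 5.01 (-0.81 ± 0.19, adjusted p = 0.143), with sham at 5.25. The mature forms that these genes give are shown with the seed, bases 2 to 8 that pair with targets, in capitals (RefSeq). The pair of miR-99a arms and that of miR-505 share no seed with each other.
miR-505-3p: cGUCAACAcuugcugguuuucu
miR-505-5p: gGGAGCCAggaaguauugauguu
miR-99a-5p: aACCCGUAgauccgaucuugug
miR-99a-3p: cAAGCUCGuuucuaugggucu

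Some genes of glycogen handling had lower values at day 26, while the list as a whole lay near 0. Phka1, the regulatory alpha subunit of muscle phosphorylase kinase, which switches on glycogen breakdown, was at 9.19, 8.89 and 9.00 against 8.00 and 8.11 (-0.97 ± 0.14, limma adjusted p = 0.0684). Ugp2, which makes the UDP-glucose used for glycogen synthesis, was at 9.83, 9.64 and 9.70 against 9.07 and 9.23 (-0.57 ± 0.08, adjusted p = 0.0684). Chosen after the values were seen, the catalytic subunit Phkg1 had -0.66 ± 0.15, glycogen synthase Gys1 -0.28 ± 0.09 and the branching enzyme Gbe1 -0.31 ± 0.11. The phosphorylase genes Pygm (-0.05 ± 0.07) and Pygb (-0.04 ± 0.08) were near 0. Of 23 measured glycogen genes, 6 were lower and 1 higher at an unadjusted p under 0.05 (background 7.35% lower and 7.63% higher). The median was -0.05, and -0.16 without day 26 replicate 1. The higher one, Ppp1r3c, which targets a phosphatase to glycogen, had 0.33 ± 0.12. Pfkfb2, the cardiac enzyme that makes the activator of glycolysis fructose 2,6-bisphosphate, was at 9.23, 9.04 and 9.22 against 8.49 and 8.47 (-0.68 ± 0.10, adjusted p = 0.0684). Its sham mean was 8.64 and the other proton days lay between 8.56 and 8.79, so day 3 was the group apart.

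Ppargc1a, which encodes PGC-1alpha, the main inducer of mitochondrial genes, was at 10.72, 10.55 and 10.62 at day 3 and at 10.06 on both day 26 arrays (-0.57 ± 0.10, limma adjusted p = 0.0769), and its second probe set had -0.69. The means of sham and of days 1, 5 and 12 were 10.12 to 10.20, so again day 3 stood above all other groups. Of 28 measured genes of the citric acid cycle and pyruvate dehydrogenase, 21 lay below 0 (median -0.11). At an unadjusted p under 0.05, 10 were lower (background 7.35%) and 1 higher (background 7.63%). Dlat, the acetyl-transferring subunit of pyruvate dehydrogenase, was at 9.90, 9.87 and 9.89 against 9.65 and 9.58 (-0.27 ± 0.07, adjusted p = 0.156). Dld, the subunit shared with the other keto acid dehydrogenases, was at 9.71, 9.79 and 9.75 against 9.41 and 9.44 (-0.32 ± 0.10). The higher gene, chosen after the values were seen, was Idh2 (0.16 ± 0.06). These shifts were small, and the count of 10 was 3 without day 26 replicate 2 (background 4.74%) and 6 without day 3 replicate 2 (background 5.73%). The mitochondrial carrier Slc25a13, which exchanges aspartate for glutamate, had -0.51 ± 0.09 (limma adjusted p = 0.0769). Its family of 37 Slc25 carriers, however, had 20 members above 0 and a median of 0.05. Of the 37, 4 were higher and 4 lower at an unadjusted p under 0.05 (background 7.63% and 7.35%). Of 40 genes of fatty acid use, 21 lay above 0, with 3 higher and 2 lower (background 7.63% and 7.35%). Complexes of the respiratory chain had medians of -0.09 (43 genes of complex I, 6 lower and 1 higher at an unadjusted p under 0.05) and -0.04 (39 genes of complexes II to V, 1 lower and 1 higher). The background was 7.35% lower and 7.63% higher. The median of complex I was -0.14 without day 3 replicate 3 and -0.04 without day 3 replicate 2, and it turned to 0.04 with the marker covariate.

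Contractile genes had medians near 0, and ion channels lay slightly lower. The 16 ventricular cardiomyocyte markers had a median of -0.03, with 3 lower and 0 higher at an unadjusted p under 0.05 (background 7.35% and 7.63%). Of 41 sarcomere and Z-disc genes 11 were lower (background 7.35%) and 1 higher, with a median of -0.01 (-0.07 without day 3 replicate 3), and the count of 11 was 5 without day 26 replicate 2 (background 4.74%). Tcap, the titin cap, was at 9.41, 9.69 and 9.39 against 9.08 and 9.20 (-0.36 ± 0.10), Pdlim5 of the Z-disc had -0.24 ± 0.06 and Tmod1, which caps actin filaments, -0.22 ± 0.05; the second, dimmer probe set of Tmod1 had 0.38. Of 26 ion channel genes 21 lay below 0, with a median of -0.11. At an unadjusted p under 0.05, 3 were lower and 2 higher, 11.5% and 7.69%, near the background of 7.35% and 7.63%. Per array their mean was 0.03 to 0.04 at day 3 and -0.07 to -0.02 at day 26, while sham spanned -0.14 to 0.09. Kcnh2, the potassium channel of the rapid delayed rectifier current, was at 8.38, 8.42 and 8.30 against 7.73 and 7.87 (-0.57 ± 0.09, limma adjusted p = 0.0769), with sham at 8.35. Here day 3 was at the sham level and day 26 below it. The cardiac calcium channel gene Cacna1c had -0.41 ± 0.11 and the ryanodine receptor gene Ryr2 had -0.32 ± 0.11. In Cacna1c the sham mean of 9.54 was at the level of day 26 (9.54 and 9.49). The natriuretic peptide genes, which the stretched heart induces, had 0.31 ± 0.12 (Nppb) and -0.12 ± 0.45 (Nppa), and the fetal myosin Myh7 had 0.26 ± 0.24.

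Genes of cAMP signalling include the phosphodiesterases, which break down cAMP and cGMP and so limit the response to adrenaline. Of 22 measured genes of that list 7 were lower (background 7.35%) and 1 higher (background 7.63%) at an unadjusted p under 0.05 (median -0.18). Pde7b was at 8.01, 7.95 and 7.97 against 7.37 and 7.58 (-0.50 ± 0.10, limma adjusted p = 0.104) and Pde1c at 7.55, 7.08 and 7.45 against 6.70 and 6.60 (-0.71 ± 0.18). For both, sham (7.85 and 7.41) was near day 3. Pde4d (-0.46 ± 0.13), Pde4a (-0.32 ± 0.10) and Pde4b (-0.45 ± 0.14), chosen after the values were seen, were lower too. Pde7a was at 8.67, 8.57 and 8.73 against 8.46 and 8.49 (-0.18 ± 0.09); the groups did not overlap, and both days were above the sham mean of 7.76. With the marker covariate 8 members of the list passed lower and 0 higher (background 4.88% and 4.62%).

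Clock genes, which cycle over the day in the heart, had differences in opposite directions. The labels used here give no hour of collection. Ciart, a repressor of the clock, was at 6.30, 6.69 and 6.08 against 5.38 and 5.21 (-1.06 ± 0.26, limma adjusted p = 0.149), and its second probe set had -1.03. Per3 was at 5.85, 5.91 and 6.07 against 5.36 and 5.41 (-0.56 ± 0.13) and the output factor Dbp at 8.72, 9.07 and 8.75 against 8.47 and 8.29 (-0.47 ± 0.13). Nfil3, which represses targets of Dbp, was at 6.49, 6.58 and 6.54 against 7.19 and 7.07 (0.59 ± 0.13), and Arntl, the activator BMAL1, at 6.63, 6.52 and 6.75 against 7.12 and 6.96 (0.41 ± 0.14). None of the 5 overlapped between the days, but Nfil3 and Per3 were named for the smallest p of the list. Of the 19 measured clock genes, 3 were higher and 6 lower without overlap (background 15.0% and 15.8%). Day 12 had the same order to the sham level as day 26 for Ciart (4.89 against 6.43), Dbp (8.23 against 8.93) and Arntl (7.21 against 6.70), while Nr1d1 (-0.16 ± 0.10) and Per2 (-0.24 ± 0.20) did not differ beyond the spread. Of 19 measured clock genes 5 were lower (background 7.35%) and 2 higher (background 7.63%) at an unadjusted p under 0.05. The list median was -0.16, and -0.06 without day 26 replicate 2. The promoters of Ciart and Per3 are shown for their known clock motifs: E-boxes (CACGTG, bound by BMAL1 and CLOCK, in 7.15% of all promoters and in 5 of 16 clock genes) and D-boxes (TTATGTAA, bound by DBP and opposed by NFIL3, in 0.938% and in 1 of 16). Motifs are in capitals, searched on both strands, in chr3:95882179-95882478 (minus strand) for Ciart and chr4:151044616-151044915 (minus strand) for Per3.
Ciart: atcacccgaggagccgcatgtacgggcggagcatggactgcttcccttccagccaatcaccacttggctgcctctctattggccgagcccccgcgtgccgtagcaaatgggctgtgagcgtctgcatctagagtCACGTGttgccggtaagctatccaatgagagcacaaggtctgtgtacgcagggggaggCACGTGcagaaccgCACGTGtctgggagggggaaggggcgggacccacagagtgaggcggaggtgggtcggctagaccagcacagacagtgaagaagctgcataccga
Per3: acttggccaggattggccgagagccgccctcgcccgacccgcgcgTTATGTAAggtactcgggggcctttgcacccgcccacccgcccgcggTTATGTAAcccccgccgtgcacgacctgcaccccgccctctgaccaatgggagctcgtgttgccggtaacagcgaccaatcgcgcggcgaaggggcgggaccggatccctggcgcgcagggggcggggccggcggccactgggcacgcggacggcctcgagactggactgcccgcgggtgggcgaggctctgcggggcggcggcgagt

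Ciart thus held 3 E-boxes and Per3 held 2 D-boxes in the window; a match is no sign of binding in these cells. Glucocorticoids, the hormones of the adrenal stress response, induce a known set of genes. Of 24 measured ones 6 were lower (background 7.35%) and 1 higher (background 7.63%) at an unadjusted p under 0.05. Their median of -0.11 turned to 0.07 without day 3 replicate 3. Lcn2, an iron-binding protein of the acute phase, was at 8.70, 8.90 and 9.35 against 7.44 and 7.86 (-1.33 ± 0.27, limma adjusted p = 0.103). Its mean was 9.51 at day 1, 8.10 at day 5, 7.52 at day 12 and 8.65 in sham, so both late days lay below sham. The metal-binding metallothioneins Mt1 (10.91, 11.11 and 11.16 against 10.70 and 10.72) and Mt2 (11.63, 11.82 and 11.82 against 11.19 and 11.27) were above sham (10.68 and 11.21) at day 3 and at its level at day 26. Fbxo32, the ubiquitin ligase atrogin-1 of muscle wasting, followed them with -0.42 ± 0.11. Fkbp5 (-0.11 ± 0.23) and Zbtb16 (0.05 ± 0.19), direct targets of the receptor, did not differ beyond the spread.

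T-cell genes stood out by size, and Cd8b1 had the largest difference of all genes tested. Cd8b1, a chain of the CD8 coreceptor of cytotoxic T cells, was at 4.46, 3.76 and 3.91 at day 3 and at 7.66 and 7.16 at day 26 (3.37 ± 0.61, limma adjusted p = 0.0769). Its day 3 values lay below the brightness filter of 5.00, so no fold is given. Cd8a, the partner chain, was at 4.80, 4.30 and 4.04 against 6.53 and 6.04 (1.91 ± 0.32, adjusted p = 0.0769). The day 3 values of Cd8a lay below that filter as well. Sham means were 4.31 and 4.62, at the level of day 3, and Cd8b1 also reached 7.19 at day 5. Cd3e (0.87 ± 0.21) and Cd4 (1.33 ± 0.44), chosen after the values were seen, were higher too, with no overlap. The B-cell genes Cd79a (0.90 ± 0.68) and Cd79b (1.20 ± 0.64) followed day 3 replicate 3, which was at 6.02 and 7.30 against 3.74 to 3.97 and 5.12 to 5.36 on its 2 partners. Of the 22 lymphocyte markers 8 were bright enough to be tested, and all 8 lay above 0; since a gene that is dark at day 3 could pass the filter through later days, the 8 do not stand for the whole list. The count of 4 members higher at an unadjusted p under 0.05 (background 7.63%) was 7 without day 3 replicate 3 (background 10.4%). Per array the mean of the 8 was -0.55, -1.07 and -0.16 at day 3 and 0.75 and 0.66 at day 26.

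MHC class II genes, which present antigen on macrophages, dendritic cells and B cells, were higher at day 26, but day 3 was divided. H2-Ab1 was at 6.39, 6.46 and 7.89 against 8.97 and 8.57 (1.86 ± 0.42, adjusted p = 0.133) and H2-DMa, which loads peptides, at 5.93, 5.75 and 6.04 against 6.84 and 7.03 (1.03 ± 0.22, adjusted p = 0.127). H2-Eb1 (1.68 ± 0.40), H2-Aa (1.75 ± 0.51) and the invariant chain Cd74 (1.81 ± 0.50), chosen after the values were seen, had the same split within day 3 as H2-Ab1. Of 25 genes of antigen presentation and complement 9 were higher (background 7.63%) and 0 lower at an unadjusted p under 0.05 (median 0.60). With the marker covariate 7 passed higher and 1 lower (background 4.62% and 4.88%). The count of 9 was 19 without day 3 replicate 3 (background 10.4%) and 4 without day 26 replicate 1 (background 3.45%). Macrophage markers themselves had a median of 0.64, all 25 above 0, yet with 1 member at an unadjusted p under 0.05, a share of 4% below the background of 7.63%. With the covariate, which holds this list, the median was -0.03, and without day 3 replicate 3 it was 1.19, with 21 members at an unadjusted p under 0.05 (background 10.4%).

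Markers of other cells of the heart wall differed by list. Endothelial markers had a median of 0.58 with 7 of 23 higher at an unadjusted p under 0.05 (background 7.63%), among them Robo4 at 6.20, 5.99 and 6.20 against 7.06 and 6.84 (0.82 ± 0.20) and Plvap, of the diaphragms of capillary pores, at 7.08, 6.60 and 7.08 against 7.55 and 7.58 (0.64 ± 0.17). The means per array of endothelial and of fibroblast markers overlapped between the days. The endothelial count of 7 was 19 without day 3 replicate 3 (background 10.4%). It was 3 without day 3 replicate 1 (background 11.9%) and 3 without day 3 replicate 2 (background 5.81%). Without day 26 replicate 1 the list median was 0.38. Smooth muscle and pericyte markers had a median of 0.62. Of 14 tested, 7 were higher and 1 lower at an unadjusted limma p under 0.05 (background 7.63% and 7.35%). The lower one, desmin (Des, -0.15 ± 0.06), is also a main filament of cardiomyocytes. Vtn was at 5.68, 5.74 and 6.07 against 7.63 and 6.88 (1.42 ± 0.28, adjusted p = 0.102), the platelet-derived growth factor receptor Pdgfrb at 6.57, 6.52 and 7.05 against 8.04 and 7.39 (1.00 ± 0.27), and Kcnj8, a potassium channel of pericytes, at 5.81, 5.55 and 6.26 against 7.53 and 6.50 (1.14 ± 0.32). In these 3 genes day 26 replicate 1 was above replicate 2, and without replicate 1 the list median was 0.36. Among 16 fibroblast markers 4 were higher (background 7.63%), and 11 without day 3 replicate 3 (background 10.4%). Their median was 0.46, and 0.22 without day 26 replicate 1. Thy1, also found on T cells of mice, was at 5.42, 4.90 and 5.95 against 6.95 and 6.86 (1.48 ± 0.35). Mesothelial markers had 0 of 12 members at an unadjusted p under 0.05 in limma (background 7.63% higher and 7.35% lower). Their median was 0.23, -0.16 without day 3 replicate 2, 0.79 without day 3 replicate 3 and -0.67 with the marker covariate, and their means per array spanned -1.02 to 1.04 at day 3 and -0.06 to 0.05 at day 26. The marker score of the endothelial, fibroblast and macrophage lists was -0.62, -0.69 and 0.45 at day 3 and 0.48 and 0.11 at day 26. All 24 genes named for their small p kept their direction in every alternative that gave them a value (18 or 19 each) and passed with this score as a covariate. They were chosen on these arrays for small p and for groups without overlap, so a kept direction was nearly fixed in advance. In that covariate fit 4.62% of all genes passed higher and 4.88% lower.

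**Figure D4:**
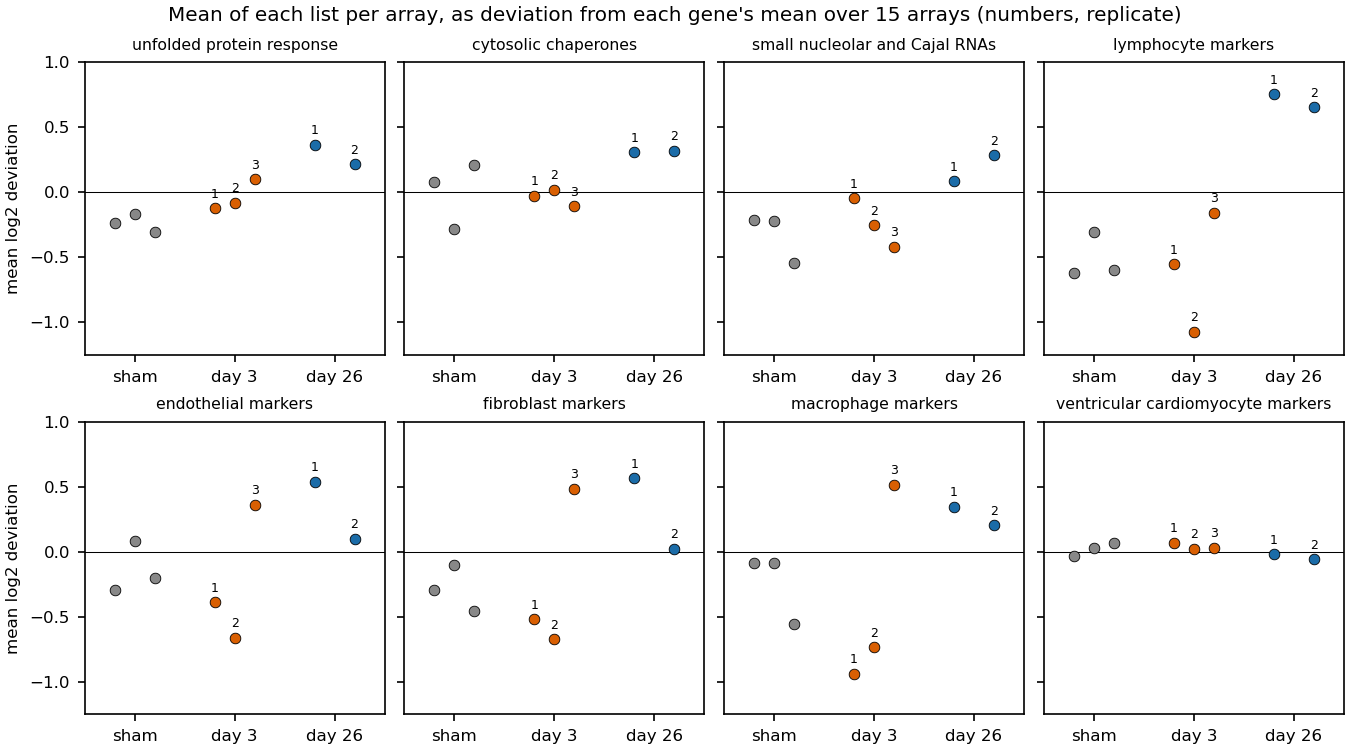
Mean of 8 gene lists on each array of sham, day 3 and day 26 (x axis), as log2 deviation from each gene's mean over the 15 arrays (y axis); numbers are replicates. In endothelial, fibroblast and macrophage markers day 3 replicate 3 lies with the day 26 arrays (macrophage 0.51 against -0.94 and -0.74), whereas the cytosolic chaperone means of the 3 day 3 arrays, -0.11 to 0.02, all lie below those of day 26, 0.31 and 0.32.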

How the data were processed

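Log2 signals of 34760 probe sets on 15 Affymetrix arrays were used as deposited by the authors; the submitters' processing notes name MAS5 without a version, and background correction and normalization are not given in the sources used here. Probe sets with 1 gene symbol (21640; 1321 had several and 11799 no entry; 21553 matched RefSeq) were reduced to the brightest per gene, and genes with a mean above 5.00, the median of all probe sets, were kept: 12102 genes. The day 5 arrays of replicates 1 and 2 were near-duplicates and were averaged as 1 sample. Their SD of log2 differences was 0.0768 over the genes tested (next pair 0.222) and 0.323 over all probe sets (next pair 0.464). Linear models were fitted with limma 3.58.1 (eBayes with a variance trend) in R 4.3.3 to 11 proton samples in 5 day groups, with 6 residual degrees of freedom, for day 26 minus day 3, 2-sided, with Benjamini-Hochberg adjustment over all genes. Log2 differences carry the SE of the fit. Tables and plots were made with Python 3.11.15. The number of arrays limits the precision.

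The members and the 51 gene lists were chosen with earlier results of these data known, so no list is independent support. Named genes were up to 12 per direction passing the test without overlap of arrays, filled up with the smallest p, then of each list up to 4 passing members or else the 2 with the smallest p, and 24 fixed genes, of which Cdkn1a and Gapdh were not measured by a single-symbol probe set above the filter. Alternatives covered scaling, filter, probe sets, variance model, samples in the fit, a replicate block, a marker covariate and leaving out each array.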

Additional observations from a re-analysis of the deposited data

How the results depend on the processing

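The number of genes passing, 1 with the 11 proton samples, was 2 after quantile normalization, 0 with equal array medians, 6 without a filter, 23 with a filter at the 75th percentile, 37 over all probe sets above the median, 6 with a robust variance, 128 with array weights (lowest weight 0.376, day 3 replicate 3), 3 with the 5 arrays of both days alone, 0 with sham as a 6th group, 82 with the 12 proton arrays as separate samples, 0 without shared spread and 1149 with the marker covariate. It was the same, 1, with probe sets averaged per gene or without a variance trend, and 0 to 10 when 1 array was left out, where a day with 1 array left borrows its spread from the other days. Of 13 pairs of arrays that share a replicate number, 5 had residuals correlated above 0.1 (median -0.201). Residuals of a day with 2 arrays mirror each other, so these values cannot decide whether the numbers pair samples. The fit with a replicate block passed 0. By its design it gave the same differences as leaving out day 3 replicate 3, so it is no separate check. Of 130 named genes, 123 kept their direction in every alternative. Many were chosen for small p in these data, and several alternatives leave the difference itself unchanged, so this is no independent check. Differences that turned were Zbtb16 (-0.047 with equal medians), Tmod1 (0.084 with probe sets averaged), Bnc1 (-0.12 with the marker covariate), Rnu12 (0.026 with array weights, 0.062 with the replicate block), Nppa (0.051 and 0.13) and Fkbp5 (0.12 with the block). The values with the block are those without day 3 replicate 3. With 1 array left out, Rnu12 ranged from -0.22 to 0.062, Fkbp5 from -0.30 to 0.12, Zbtb16 from -0.15 to 0.19, Nppa from -0.65 to 0.40 and Myh7 from -0.039 to 0.57. The causes were not tested. Medians of the lymphocyte and Schwann cell lists could not be given under the filter at the 75th percentile. With 2 and 3 arrays, signal over background and array number limit what could be called.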

Other observations

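Several gene groups have no account above, and none of their members passed an adjusted p of 0.05 in limma. The genes named in these paragraphs were chosen after their values were seen. Immediate early genes, the first to answer a stimulus, had a median log2 difference of 0.18 over 26 genes, with 4 higher (7.63% of all genes were) and 0 lower at an unadjusted p under 0.05. That median was 0.37 without day 3 replicate 3, 0.04 without day 3 replicate 1, 0.09 without day 3 replicate 2 and 0.46 without day 26 replicate 2, and it turned to -0.12 without day 26 replicate 1 and to -0.19 with the marker covariate. Jund was at 7.75, 7.93 and 7.87 at day 3 and at 8.40 and 8.14 at day 26 (0.42 ± 0.10, SE), and Jun had 0.55 ± 0.12, although the sham arrays of Jun alone had an SD of 0.61. Cell cycle genes had 4 of 24 higher, against 7.63% of all genes, and 0 lower (median 0.25). The 4 were 6 without day 3 replicate 1 (background 11.9%), 2 without replicate 2 (5.81%) and 7 without replicate 3 (10.4%). The median was 0.21 without day 26 replicate 1. Rrm2, a subunit of the enzyme that makes DNA building blocks, was at 5.04, 4.91 and 5.00 against 6.13 and 5.57 (0.86 ± 0.26). Targets of p53, the factor activated by DNA damage, had a median of 0.01 over 24 genes (-0.04 to 0.05 when 1 array was left out). Of them 1 was higher (Phlda3, 0.35 ± 0.12) and 1 lower (Perp, -0.17 ± 0.06), against 7.63% and 7.35% of all genes. Of 30 DNA repair genes, with a median of -0.04 (-0.12 without day 3 replicate 3), 1 was higher and 3 were lower (background 7.63% and 7.35%). Among the lower was Ercc5, the nuclease XPG of nucleotide excision repair, at 7.05, 6.85 and 6.98 against 6.58 and 6.45.

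Interferon-stimulated genes all lay above 0 (23 of 23 tested, median 0.43). At an unadjusted p under 0.05, however, 3 were higher (background 7.63%), and the median was 0.02 with the marker covariate. Without day 3 replicate 3 the count was 16 (background 10.4%). Irf7, which amplifies the interferon response, was at 5.55, 5.44 and 5.87 against 6.40 and 6.62. Adipocyte markers had a median of 0.68 over 8 genes, with 3 higher (background 7.63%). That count was 1 without day 3 replicate 1 (background 11.9%) and 6 without day 3 replicate 3 (background 10.4%). The median was 0.31 without day 26 replicate 1. Scd1, which desaturates fatty acids and is abundant in fat, was at 6.78, 5.68 and 8.60 against 10.31 and 9.04 (2.66 ± 0.82, limma adjusted p = 0.202). Car3, another gene of fat cells, was at 7.30, 5.68 and 8.86 against 9.56 and 8.25, so day 3 spanned more than the difference. Of 6 markers of red cells and platelets, 4 lay below 0 and 2 above. None had an unadjusted p under 0.05 in limma (background 7.63% higher and 7.35% lower). Their median of -0.80 was -0.27 without day 3 replicate 3 and -0.49 without day 26 replicate 2. Slc4a1, the band 3 anion exchanger of red cells, was at 4.99, 5.11 and 7.00 against 4.41 and 4.45, while the platelet gene Gp9 was at 5.56, 5.44 and 5.55 against 5.83 and 5.68. Mmp27, a matrix metalloproteinase, was at 5.73, 6.22 and 6.31 against 4.12 and 4.94 (-1.56 ± 0.28, limma adjusted p = 0.0769). The day 26 values of Mmp27 lay below the brightness filter, so it passed that filter through other arrays and no fold is given.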
